A study of Mus musculus with 8 samples.

Results

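Neutrophils are made in the liver of the newborn mouse, and the genes described here are 32 genes of their granules and of their maturation. They were taken as every non-control probe whose gene name was one of the 32, and all 32 genes were on the array, with 39 of its 55681 probes. The genes comprised 4 of the early (azurophil) granules, 8 of the late granules, 2 of promyelocytes and myelocytes, 2 transcription factors, 6 cytosolic or nuclear proteins, 7 receptors or surface proteins, 2 subunits of the NADPH oxidase and the secreted protein Retnlg.

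The study compared the liver of C57BL/6J newborn mice whose maternal chromosome carried a deletion of the microRNAs from miR-379 to miR-410 (knockout; the miR-379/miR-410 cluster) with that of their wild-type littermates. Pups of both groups were delivered by caesarean at E19.5 (the end of gestation), kept warm and killed 4 h later, and a fragment of the large liver lobe was used. Each group had 4 single-colour arrays, each made from 200 ng of total RNA labelled with Cy3. An inherited deletion is carried by all cells of the liver, not by a chosen cell type. The mother and sex of each pup were not given in the labels, and nothing in them stated whether the 4 replicates of a group were separate pups. The p-values below therefore measure the spread between these arrays.

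A neutrophil is built in stages. The promyelocyte makes the azurophil granules, filled with myeloperoxidase and serine proteases. The myelocyte and the cells that follow it switch those genes off and make the specific and gelatinase granules, filled with lactoferrin, cathelicidin and metalloproteinases, and the mature cell adds chemokine and formyl peptide receptors. The fetal liver is a blood-forming organ, and blood formation moves to the bone marrow around birth, so RNA of all these stages can be present in newborn liver. In a piece of whole liver, fewer neutrophils and less of an RNA per neutrophil cannot be told apart.

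No difference between the genotypes passed the test in any of the 32 genes, although all were measured well above background. All 39 probes were well above background on all 8 arrays. The brightest probe of each gene is used below, and its level is log2 of the scanner's processed signal minus the 75th percentile of that array. By this scale 31 of the 32 genes lay above the 75th percentile on every array, and Ly6g lay below it on every array. A probe's brightness depends on its sequence, so levels were not compared between genes. In limma with Benjamini-Hochberg adjustment over 23526 genes, 0 of the 32 were called at an adjusted p under 0.05, against 0.217% of all genes. In the knockout 0 were called higher, against 0.0383%, and 0 were called lower, against 0.179%. Adjusted p ranged from 0.264 to 0.984. At an unadjusted p under 0.05, 2 of the 32 genes (Ctsg and Ly6g) passed, against 13.3% of all genes. The groups failed to overlap for 1 gene (Prtn3), against 9.05% of all genes.

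The differences were small and closely bounded. The median knockout minus wild-type difference was 0.02 on the log2 scale for the 32 genes and 0.03 for all genes tested. The median size of the difference, regardless of sign, was 0.03 for the 32 genes and 0.12 for all genes. All genes here include dimmer probes, well above background on at least 4 of 8 arrays. The set was not compared with genes of like brightness, so the smaller and tighter differences are not shown to be particular to it. The 95% interval reached a median of 0.22 to either side of the difference for the 32 genes and 0.26 for all genes. The interval lay within 0.5 on either side of 0, a 1.41-fold change, for 30 of the 32 genes and for 66.9% of all genes. It lay within 0.25, a 1.19-fold change, for 12 of the 32 and for 16.9% of all genes. A change of 2-fold (1 on the log2 scale) was outside the interval of all 32 genes and of 93.3% of all genes. The exceptions to the 0.5 bound were Cxcr2, whose interval was -0.30 to 0.53, and Ly6g, whose interval was -0.58 to -0.08. These bounds take the 8 arrays as independent. Without both replicate 4 arrays the SE was larger, for example 0.19 against 0.16 for Mpo and 0.24 against 0.18 for Cxcr2, so the bounds were then wider.

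**Figure D1:**
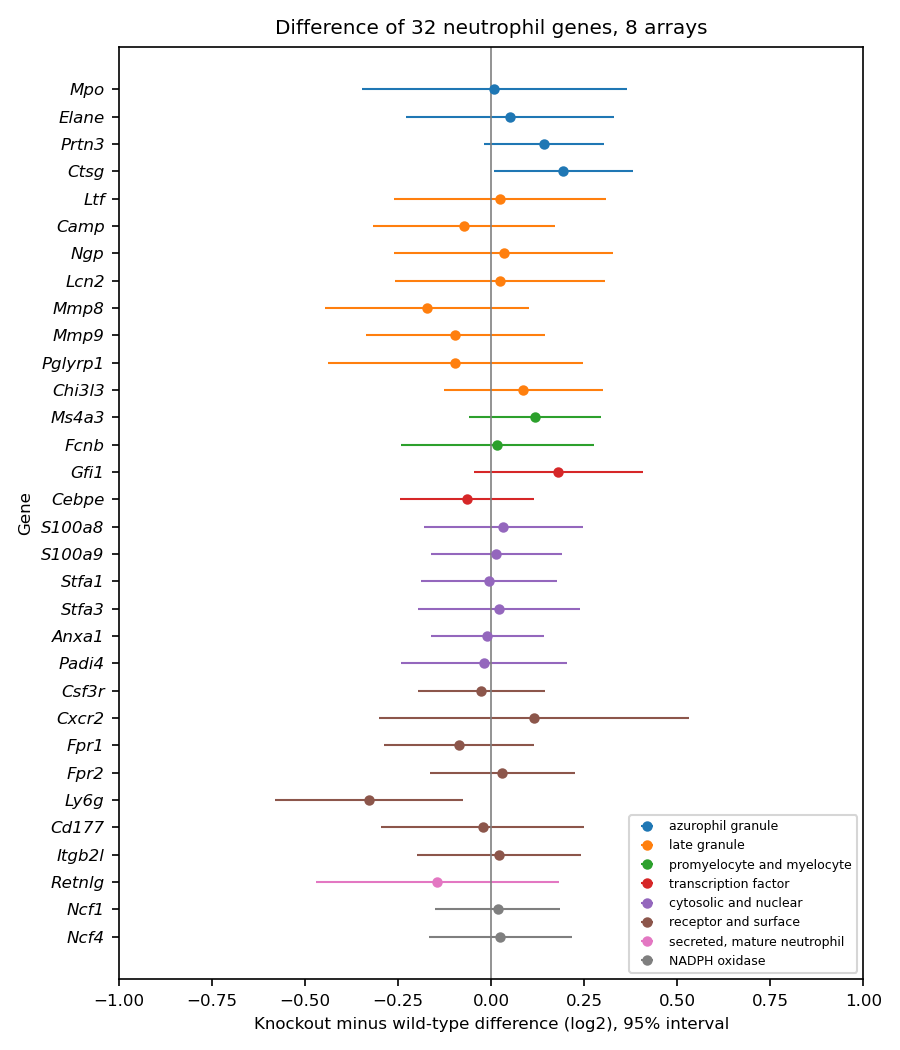
Knockout minus wild-type difference (log2) of each of the 32 genes, with its 95% interval from limma over 8 arrays, coloured by the role of the gene. The points lie between -0.33 (Ly6g) and 0.19 (Ctsg), and the intervals of Ctsg and Ly6g are those that leave out 0 before adjustment.

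The arrays themselves bear on these values. All 8 were on 1 slide, with wild-type arrays and knockout arrays in separate columns, so an effect of the column and an effect of the genotype cannot be told apart. Mirg, a noncoding transcript of the imprinted locus that holds the microRNA cluster, checked the labels: its level was 2.11, 2.24, 2.15 and 2.14 on wild-type arrays 1 to 4 and -0.20, -0.31, -0.91 and -0.73 on knockout arrays 1 to 4, a difference of -2.70 (SE 0.15, limma adjusted p = 0.000326). Whether its probe lies within the deleted part was not given in the labels. When each array was fitted as a weighted sum of the other 3 arrays of its group, the median error over the 32 genes was 0.0322 for knockout 4, 0.0532 for wild-type 4, 0.0565 for knockout 3 and 0.0669 to 0.262 for the others. Knockout 4 was thus the array closest to such a sum, and wild-type 4 was the closest of the wild-type arrays. The sum for knockout 3 put a weight of 0.94 on knockout 4, so its small error is not separate from that array. Whether the replicate 4 arrays were independent of the others was not tested. Sex-linked transcripts differed between the groups. Xist, the female transcript, was well above background on 0 wild-type arrays and on knockout 1, 2 and 4, and the Y-linked Ddx3y on wild-type 1, 2 and 4 and on knockout 3 and 4. Knockout 4 thus had both and wild-type 3 neither. The Ddx3y level was 2.21, 2.21, -7.67 and 1.39 on wild-type arrays 1 to 4, so wild-type 4 lay between the others. With Ddx3y as a covariate 0 of the 32 genes were called, and their median difference was -0.01. Without both replicate 4 arrays, 0 of the 32 genes were called, against 0.0255% of all genes, and 0 of the 32 had an unadjusted p under 0.05, against 7.33%.

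The differences of the azurophil granule genes were above 0 in 4 of 4 cases, as were those of 56.5% of all genes, and 0 of 4 passed the adjusted test. Elane (neutrophil elastase) and Prtn3 (proteinase 3) are neighbouring protease genes on chromosome 10. Their probes lie at chr10:79350902-79350961 and chr10:79343869-79344685 (mm9); the files place the 60 bases of some probes, such as that of Prtn3, over a wider span. The 150 bases before the start of each gene are shown for comparison with those of the late granule genes printed further on. They come from RefSeq on GRCm38.p6, plus strand, chr10:79886162-79886311 for Elane and chr10:79879517-79879666 for Prtn3, and the capitals mark GAGGAA, the letters of a common site of the myeloid factor PU.1.
Elane: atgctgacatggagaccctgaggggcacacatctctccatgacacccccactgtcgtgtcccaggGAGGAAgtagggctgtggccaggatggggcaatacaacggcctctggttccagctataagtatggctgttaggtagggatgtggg
Prtn3: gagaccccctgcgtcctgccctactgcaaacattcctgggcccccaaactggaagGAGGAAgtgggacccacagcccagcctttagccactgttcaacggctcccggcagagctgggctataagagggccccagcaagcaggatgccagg

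Prtn3 was at 2.95, 2.76, 2.99 and 2.91 on wild-type arrays 1 to 4 and at 3.02, 3.08, 3.02 and 3.05 on knockout arrays 1 to 4. Every knockout array was above every wild-type array, by a margin smaller than the spread of the wild-type arrays. The means were 2.90 ± 0.10 and 3.04 ± 0.03 (SD, n = 4 each), a difference of 0.14 (SE 0.07, limma adjusted p = 0.426). For Elane the wild-type levels were 4.88, 4.87, 5.30 and 5.23 and the knockout levels 5.16, 5.28, 5.07 and 4.97. The groups overlapped, with wild-type arrays at both ends, and the difference was 0.05 (SE 0.12, limma adjusted p = 0.877).

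Ctsg encodes cathepsin G, the third azurophil protease measured. Its levels were 5.69, 5.77, 5.86 and 5.73 in the wild-type and 5.81, 5.90, 6.06 and 6.05 in the knockout. Knockout 1 lay below wild-type 3, so the groups overlapped. The knockout level was 114% of the wild-type level, a difference of 0.19 (95% interval 0.01 to 0.38). Its unadjusted p in limma was 0.0442 and its adjusted p 0.364, so it did not pass. With both replicate 4 arrays left out the difference was 0.15 (limma adjusted p = 0.764).

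Mpo encodes myeloperoxidase, which makes hypochlorous acid and is the standard marker of azurophil granules. It was at 6.82, 6.96, 6.96 and 6.88 in the wild-type and at 6.40, 7.07, 7.05 and 7.12 in the knockout. Knockout arrays 2 to 4 lay above all wild-type arrays and knockout 1 lay below them all. The difference was 0.01 (SE 0.16, limma adjusted p = 0.984). The spot of this probe on knockout 1 was uneven: the SD of its pixels was 0.200 of the spot's mean, against 0.0551 to 0.0833 on the other 7 arrays. The second Mpo probe was at 4.28, 4.33, 4.49 and 4.39 in the wild-type and at 4.39, 4.62, 4.56 and 4.57 in the knockout, with a difference of 0.16 (SE 0.08). On that probe knockout 1 was again the lowest knockout array, but it lay within the wild-type range.

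The late granule genes split evenly in sign, with 4 of 8 differences above 0, and 0 of 8 passed. Ltf (lactoferrin, an iron-binding protein), Camp (the cathelicidin antimicrobial peptide) and Ngp (neutrophilic granule protein) lie on chromosome 9, where their probes are at chr9:110942873-110942932, chr9:109749911-109749970 and chr9:110324266-110324814 (mm9). The 150 bases before the start of Ltf (chr9:111019142-111019291) and of Ngp (chr9:110419658-110419807), plus strand of GRCm38.p6, are shown from RefSeq as examples of late genes. Here the capitals mark TTNNGNAA on either strand, a loose form of the core that C/EBP factors bind.
Ltf: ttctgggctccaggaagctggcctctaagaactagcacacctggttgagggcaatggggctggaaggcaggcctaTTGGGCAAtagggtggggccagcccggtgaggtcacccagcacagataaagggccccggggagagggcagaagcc
Ngp: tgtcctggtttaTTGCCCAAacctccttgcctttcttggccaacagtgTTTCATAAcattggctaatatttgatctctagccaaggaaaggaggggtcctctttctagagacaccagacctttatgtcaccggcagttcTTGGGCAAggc

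The letters TTNNGNAA or their reverse complement were in the 250 bases before the start of 18 of the 29 genes of the set that the promoter table listed, and in 36.8% of all 32851 listed promoters. They were in 0 of 4 azurophil genes and in 5 of 7 late granule genes. GAGGAA or TTCCTC was also in 18 of the 29, against 23.3% of all promoters, in 4 of 4 azurophil genes and in 4 of 7 late granule genes. The letters of both motifs can overlap, a gene with several listed starts was counted once, and a match is not evidence of binding. Mmp9, Cebpe and Ncf4 were not in the table.

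Ltf was at 6.18, 6.36, 6.69 and 6.60 on the wild-type arrays and at 6.66, 6.36, 6.44 and 6.46 on the knockout arrays, a difference of 0.02 (SE 0.12). Ngp was at 5.65, 5.99, 6.25 and 6.16 in the wild-type and at 6.16, 6.03, 6.01 and 5.97 in the knockout, a difference of 0.03 (SE 0.13). For Camp the wild-type levels were 7.41, 7.86, 7.77 and 7.77 and the knockout levels 7.71, 7.66, 7.52 and 7.62, a difference of -0.07 (SE 0.11). In all 3 genes wild-type 1 was the lowest array of the 8, and the wild-type arrays spread more widely than the knockout arrays. A second Camp probe that overlaps the same stretch gave a difference of -0.10 (SE 0.12).

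Lcn2 encodes lipocalin 2, which binds bacterial siderophores and is also made by hepatocytes in the acute phase. It was at 6.47, 6.69, 7.01 and 6.90 in the wild-type and at 6.95, 6.72, 6.79 and 6.70 in the knockout. The difference was 0.02 (SE 0.12), and wild-type 1 was again the lowest array. Chi3l3, a chitinase-like protein that macrophages also make, was at 6.01, 6.13, 5.85 and 5.82 in the wild-type and at 6.17, 6.06, 5.93 and 5.99 in the knockout, a difference of 0.09 (SE 0.09). Here the lowest array was wild-type 4.

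Mmp8 (neutrophil collagenase) and Mmp9 (gelatinase B) are the metalloproteinases of these granules. Mmp8 was at 3.19, 3.66, 3.52 and 3.52 in the wild-type and at 3.39, 3.07, 3.36 and 3.38 in the knockout, a difference of -0.17 (SE 0.12, limma adjusted p = 0.546). Mmp9 was at 0.35, 0.67, 0.78 and 0.76 in the wild-type and at 0.63, 0.57, 0.48 and 0.50 in the knockout, a difference of -0.10 (SE 0.11). For both genes wild-type arrays 2 to 4 lay above all knockout arrays and wild-type 1 lay among or below them. Pglyrp1, a peptidoglycan recognition protein, was at 3.29, 3.51, 3.87 and 3.76 in the wild-type and at 3.63, 3.73, 3.40 and 3.28 in the knockout, a difference of -0.10 (SE 0.15), and its groups overlapped almost fully.

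**Figure D2:**
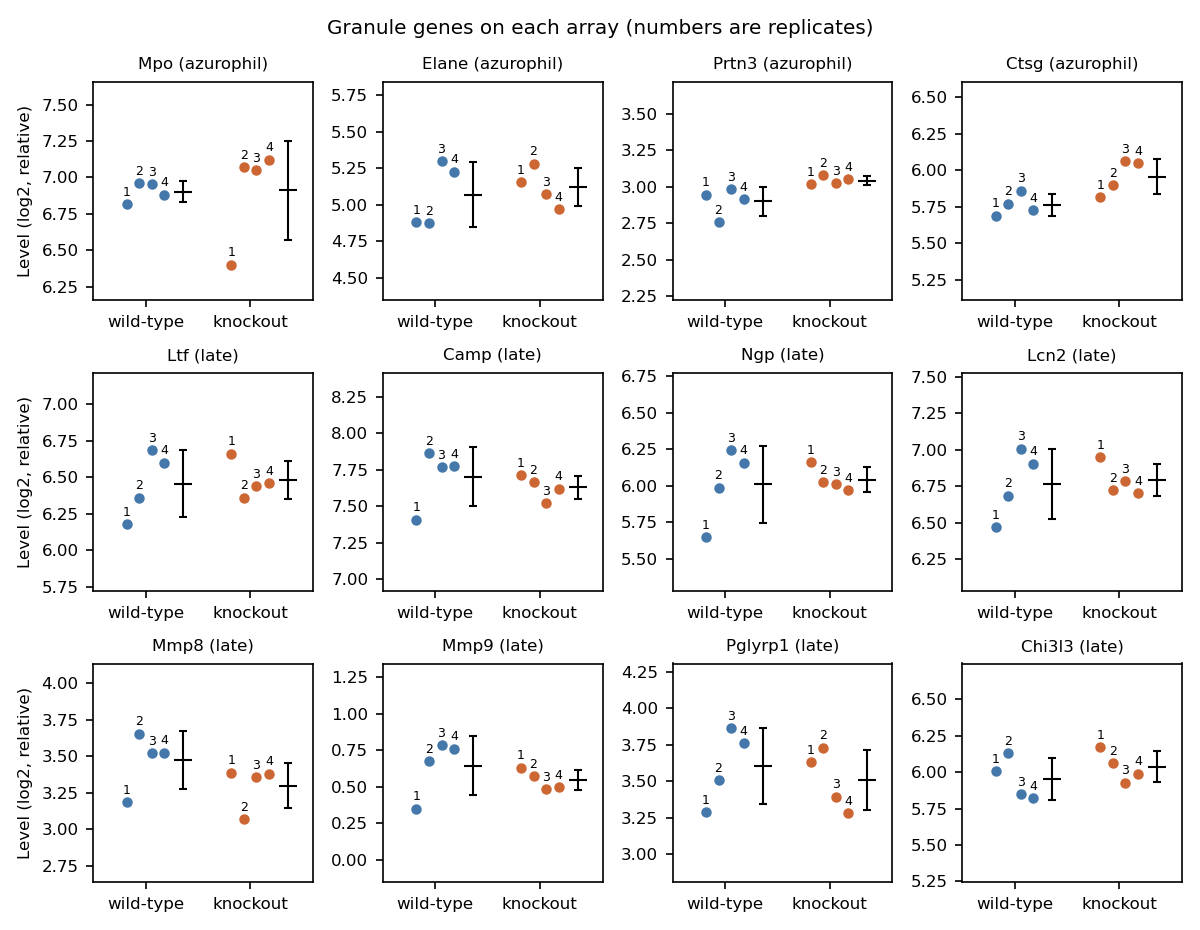
Level (log2 relative to the array's 75th percentile) of the 4 azurophil and 8 late granule genes on each array, with the replicate number beside each point and the group mean ± SD (n = 4) as a bar. Each vertical axis spans the same range on the log2 scale. Knockout 1 stands apart for Mpo, wild-type 1 is the lowest of 8 arrays in 5 of the 8 late genes, and the groups overlap in all of the 12 genes but Prtn3.

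Early and late granule genes were then set against each other within each array. Each gene's level was taken as its deviation from its mean over the 8 arrays, and the deviations were averaged over the genes of a group. The azurophil mean was -0.13, -0.12, 0.07 and -0.02 on wild-type arrays 1 to 4 and -0.11, 0.12, 0.09 and 0.09 on knockout arrays 1 to 4. The late granule mean was -0.24, 0.05, 0.16 and 0.10 in the wild-type and 0.10, -0.03, -0.07 and -0.07 in the knockout. Knockout arrays 2 to 4 had high azurophil and low late values, and wild-type arrays 2 to 4 had high late values with azurophil values on both sides of 0. Replicate 1 of each genotype departed from its own group, and the azurophil mean of knockout 1 takes in the uneven Mpo spot.

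Late minus early was -0.12, 0.17, 0.09 and 0.12 in the wild-type and 0.22, -0.16, -0.16 and -0.16 in the knockout. The means were 0.07 ± 0.13 and -0.07 ± 0.19 (SD, n = 4 each), a difference of -0.13 that is no larger than the spread within the knockout. Knockout 1 had the highest value of all 8 arrays, but this takes in the Mpo level from its uneven spot, and its rank depends in part on that spot. Wild-type 1 lay next to the other knockout arrays. The difference was -0.23 without knockout 1, -0.19 without wild-type 1 and -0.08 without both replicate 4 arrays. With the second Mpo probe in place of the brightest it was -0.17. The median difference was 0.10 for the 4 azurophil genes and -0.03 for the 8 late genes, against 0.03 for all genes.

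**Figure D3:**
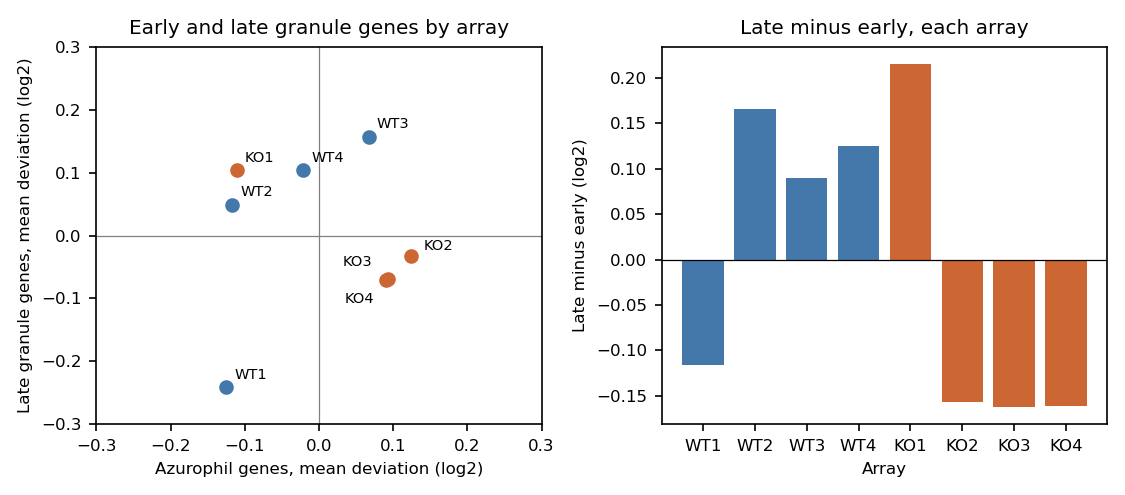
Left, mean deviation (log2) of the 4 azurophil genes against that of the 8 late granule genes on each array; the points of knockout 3 and 4 coincide. Right, late minus early on each array (bars from 0), which runs from -0.16 on 3 knockout arrays to 0.22 on knockout 1.

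Genes that mark the stages between these granules, and the factors that act there, were tested in the same way, and 0 of 4 passed. Ms4a3, a marker of promyelocytes and committed granulocyte precursors, was at 2.66 to 2.79 in the wild-type and 2.71 to 2.95 in the knockout, a difference of 0.12 (SE 0.08). Fcnb (ficolin B, a lectin of myelocytes) had a difference of 0.02 (SE 0.11), with wild-type 1 at 2.14 and the other wild-type arrays at 2.54 to 2.60. The transcriptional repressor Gfi1, needed for granulocyte development, was at 1.11 to 1.41 in the wild-type and 1.28 to 1.58 in the knockout, a difference of 0.18 (SE 0.10, limma adjusted p = 0.461). Cebpe, the C/EBP factor needed for late granules, was at 4.17 to 4.47 and 4.24 to 4.32, a difference of -0.07 (SE 0.08, limma adjusted p = 0.73). The groups of each of these genes overlapped.

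The 6 cytosolic and nuclear genes differed by -0.02 to 0.03, with adjusted p from 0.895 to 0.976 in limma. S100a8 and S100a9 form calprotectin, the main cytosolic protein of neutrophils, and are neighbours on chromosome 3. S100a8 was at 7.71 to 8.08 in the wild-type and 7.82 to 8.02 in the knockout, and S100a9 at 8.91 to 9.19 and 9.04 to 9.14. Their differences were 0.03 (95% interval -0.18 to 0.25) and 0.01 (-0.16 to 0.19). The cysteine protease inhibitors Stfa1 and Stfa3 (stefins) differed by -0.01 (SE 0.08) and 0.02 (SE 0.10), and Anxa1 (annexin A1, an anti-inflammatory protein that other cells make as well) by -0.01 (SE 0.07). A second Anxa1 probe differed by 0.13 (SE 0.07), and the mean of both probes by 0.06, so the sign depends on the probe. Padi4, the arginine deiminase that modifies histones when neutrophils release their chromatin, differed by -0.02 (SE 0.10). The Stfa3 probe shares 22 bases (GGTTACCAGACTAACAAAACCA) with a probe named Gm5483, which differed by -0.04, so related transcripts may add to its signal.

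Among the receptors and surface proteins, Ly6g was the gene with the largest difference of the set. Ly6g is the surface antigen by which mature mouse neutrophils are recognised. It was at -1.01, -0.77, -0.74 and -0.70 in the wild-type and at -0.91, -1.35, -1.15 and -1.13 in the knockout. Knockout arrays 2 to 4 lay below all wild-type arrays, and knockout 1 lay above wild-type 1. The knockout level was 79.6% of the wild-type level (95% interval 66.8% to 94.9%), a difference of -0.33 (SE 0.11), with an unadjusted p of 0.017 and an adjusted p of 0.264 in limma. Without both replicate 4 arrays the difference was -0.30 (limma adjusted p = 0.716).

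The Ly6g probe may not be unique to its gene: its last 28 bases are also in a probe named after another transcript. Whether that transcript belongs to another gene was not checked. Of the array's probes, 7.22% share a run of 20 or more bases with a probe of another name. The probes of Csf3r and Stfa3 were the other members with such a run. The shared letters of the Ly6g probe (bases 33 to 60, at chr15:74989023-74989082 on mm9) and of the Csf3r probe (bases 31 to 60, at chr4:125721478-125721537) are printed in capitals throughout, since every base of them is shared, and both probes could catch RNA of another transcript.
Ly6g: CTGTTGCAAGGAAGACCTCTGCAATGCA
Csf3r: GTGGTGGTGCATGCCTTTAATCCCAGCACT

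The probe that shares the Ly6g run was at 0.04, -0.11, 0.03 and 0.13 in the wild-type and at -0.06, -0.05, -0.10 and -0.19 in the knockout, a difference of -0.12. How much of either probe's signal came from the other transcript was not tested. Csf3r, the receptor for the growth factor G-CSF, was at 6.72 to 6.86 in the wild-type and 6.64 to 6.86 in the knockout, a difference of -0.03 (SE 0.07), and the probes that share its letters differed by -0.01 (30 bases shared) and -0.04 (20 bases shared). The probe that shares 30 bases was at 7.23 to 7.36 in the wild-type and 7.26 to 7.37 in the knockout. Whether other RNA added to the Csf3r signal was not tested, so its difference may not be that of Csf3r RNA alone.

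None of the receptors and surface proteins passed the test, and the differences of the remaining ones lay within the spread of the arrays. Cxcr2, the chemokine receptor that draws mature neutrophils out of the marrow, was at 0.42, 1.31, 1.11 and 1.06 in the wild-type and at 0.94 to 1.27 in the knockout, a difference of 0.11 (SE 0.18). Wild-type 1 was the lowest array, and the interval was the widest of the set. The formyl peptide receptor genes Fpr1 and Fpr2, which sense bacterial peptides and lie side by side on chromosome 17, differed by -0.09 (SE 0.09) and 0.03 (SE 0.09). Cd177, a surface protein that binds proteinase 3, differed by -0.02 (SE 0.12), and Itgb2l, an integrin beta chain of neutrophils, by 0.02 (SE 0.10).

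Retnlg (a resistin-like protein secreted by mature neutrophils) was at 4.41, 4.77, 5.13 and 4.95 in the wild-type and at 4.62 to 4.76 in the knockout, a difference of -0.15 (SE 0.14). All knockout arrays lay inside the wild-type range. Ncf1 and Ncf4, the cytosolic subunits p47phox and p40phox of the NADPH oxidase, both differed by 0.02 (SE 0.07 and 0.08).

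Wild-type 1 stood low across most of the set. It was the lowest of the 8 arrays in 21 of the 32 genes (65.6%), against 26.3% of all genes tested. With normexp background correction and quantile normalization it was the lowest in 19 of 32 (59.4%), against 22.4% of all genes. Averaged over the 32 genes, the deviations were -0.19, 0.04, 0.11 and 0.05 in the wild-type and 0.02, -0.01, -0.01 and -0.00 in the knockout. The summed linear level of the 32 genes ran from 1981 to 2398 in the wild-type and from 2220 to 2301 in the knockout, in units of the array's 75th percentile. Without wild-type 1, 0 of the 32 genes were called, against 0.383% of all genes, and 5 had an unadjusted p under 0.05 (Camp, Mmp8, Mmp9, Retnlg and Ly6g), against 14.8% of all genes, which is near the share of the set. The lowest adjusted p was then 0.162 in limma, for Ly6g.

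Other neutrophil genes moved with the set on that array. Of 36 further neutrophil genes 35 were tested (Bpi was not kept), 0 were called and 19 had a difference above 0, with a median of 0.02. At an unadjusted p under 0.05 there were 6 of the 35 (17.1%, against 13.3% of all genes), 4 of them higher in the knockout. Their mean deviation was -0.29 on wild-type 1 and -0.07 to 0.13 on the other arrays. The 3 with the smallest p were Cebpa, the C/EBP factor that starts the granulocyte programme and is also abundant in hepatocytes, at 0.35 (limma adjusted p = 0.187), the membrane metalloproteinase Mmp25 at -0.31 (adjusted p = 0.206) and the lectin Clec4e at 0.50 (adjusted p = 0.321). None of them passed.

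Of 13 growth factors and chemokines that act on granulocytes, 9 were tested, and 0 were called or had an unadjusted p under 0.05 in limma. Csf3, Csf2, Il3 and Cxcl3 were not kept by the filter on dim probes. The mean deviation of the 9 was 0.98 and 0.75 on knockout arrays 3 and 4 and between -0.60 and -0.04 on the other 6. Cxcl2, a ligand of Cxcr2, was at -1.71 and -2.09 on knockout 3 and 4 and at -6.75 to -5.16 on the other arrays. The lowest of these values lay near background: Xist, well above background on 0 wild-type arrays, was at -7.78 to -6.89 there. The Cxcl2 difference of 1.98 had an SE of 1.04 (limma adjusted p = 0.444), and its size depends on these low values. Il6 differed by 0.90 (adjusted p = 0.443) and the retention chemokine Cxcl12 by -0.38 (adjusted p = 0.399). On knockout arrays 3, 4 and 2, the azurophil mean was 0.09, 0.09 and 0.12 and the late granule mean -0.07, -0.07 and -0.03. Knockout 2 shared these signs, but its mean deviation of the ligands was -0.60, the lowest of all arrays. Whether the ligands and the granule genes varied together was not tested.

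Of 19 acute phase genes, 18 were tested and 0 were called. Apcs (serum amyloid P) differed by -0.83 (limma adjusted p = 0.0751), Itih4 by -0.36 (adjusted p = 0.0946) and Crp by -0.29 (adjusted p = 0.141). At an unadjusted p under 0.05 there were 6 of the 18 (33.3%, against 13.3% of all genes), 2 of them higher in the knockout. These 2 were Saa1 at 0.91 (limma adjusted p = 0.156) and Saa3 at 1.78 (adjusted p = 0.231), so the list had no single direction. Saa3 was at 0.26 on wild-type 1, at 2.51 to 2.78 on the other wild-type arrays and at 3.14 to 4.35 in the knockout. The size of its difference thus depends in part on wild-type 1. Lcn2, the granule gene that hepatocytes also make, differed by 0.02.

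Markers of other cells in the tissue were measured beside the set, and 0 genes of any of these lists were called in limma. At an unadjusted p under 0.05 there were 2 of 13 erythroid, 2 of 12 lymphocyte, 2 of 9 eosinophil, 2 of 9 mast cell or basophil and 2 of 10 hepatocyte genes, against 13.3% of all genes. There were 1 of 16 monocyte and macrophage, 1 of 9 progenitor, 0 of 10 megakaryocyte and 6 of 8 pancreas genes. On wild-type 1 the mean deviation was -0.55 for the erythroid list, -0.35 for lymphocytes and 0.35 for monocytes and macrophages, against -0.19 for the 32 neutrophil genes. On the same array it was 0.30 for mast cell and basophil genes and 0.16 for stem and progenitor cell genes. The 13 erythroid genes tested had a median difference of 0.30, and their summed level ran from 1507 to 2227 in the wild-type and from 1986 to 2125 in the knockout. The 16 monocyte and macrophage genes had a median of -0.07 and summed to 247 to 327 in the wild-type and 250 to 288 in the knockout. The 9 eosinophil genes had a median of -0.18, with sums of 56.6 to 59.8 and 37.7 to 58.6. Mast cell and basophil genes had a median of -0.13, with 3 defining markers (Tpsab1, Ms4a2 and Mrgprb1) not well above background on enough arrays to be tested. For lymphocytes the median was -0.18, for megakaryocytes -0.15, for stem and progenitor cells 0.01 and for hepatocytes -0.02. Among single genes of these lists, Clec4f of Kupffer cells differed by -0.45 (limma adjusted p = 0.203), Gzma by -0.85 (adjusted p = 0.15) and the hepatocyte enzyme Tat by -1.09 (adjusted p = 0.0591). Other genes of the same lists went the other way, such as Marco at 0.33, Igll1 at 0.20 and Ttr at 0.20. Differences above 0 were seen in 5 of 16 monocyte and macrophage, 4 of 12 lymphocyte and 4 of 10 hepatocyte genes, against 56.5% of all genes. They were seen in 12 of 13 erythroid, 1 of 9 eosinophil, 2 of 9 mast cell or basophil and 5 of 9 progenitor genes. For megakaryocyte genes it was 0 of 10, and for pancreas genes 1 of 8. Exocrine pancreas genes were high on wild-type 3 and 4, at mean deviations of 3.55 and 2.57. The part of any of these in the levels of the neutrophil genes was not tested.

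**Figure D4:**
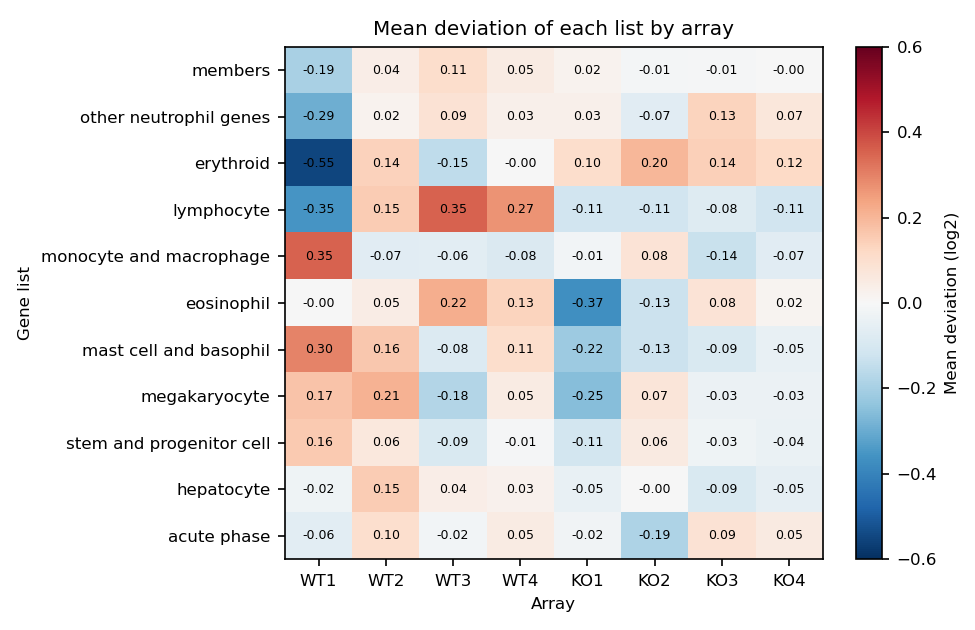
Mean deviation (log2, colour and printed value) of the 32 neutrophil genes (top row) and of lists of other genes (rows) on each array (columns), each gene taken against its mean over 8 arrays. Wild-type 1 is lowest for the neutrophil, erythroid and lymphocyte rows. It is highest for the monocyte and macrophage, mast cell and basophil, and stem and progenitor cell rows.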

How the data were processed

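Liver RNA of newborns was hybridised to single-colour Agilent arrays, 4 wild-type and 4 knockout samples with 1 array each. Per the file headers and the submitters' processing notes, the authors deposited Agilent Feature Extraction 10.10 output, in which each spot's background-corrected intensity is given. Their deposited value table, used as an alternative, holds log2 values whose column medians were 8.84 to 8.86 and whose exact processing is not given in the sources used here.

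The level used here is log2 of the processed intensity, from which the 75th percentile of the 59305 non-control spots of the same array was subtracted. Flagged spots were left out, spots of 1 probe were averaged, and 0 non-control spots were saturated. A probe with no unflagged spot on any 1 array was dropped, which removed 87 probes. A probe was kept if well above background on at least 4 of 8 arrays. Between 58.6% and 66.2% of spots were so on an array. The brightest kept probe stood for its gene. Genes were named through RefSeq accessions where they matched (27235 probes) and otherwise as the files name them. Differences were tested with limma 3.58.1 in R 4.3.3 (lmFit, eBayes), adjusted over all 23526 genes tested, at 0.05. Of these, 42 were called lower and 9 higher in the knockout. The script was tested on simulated data. Probe positions are those of the files, on mm9. Promoters are from RefSeq on GRCm38.p6. The number of arrays limits the precision.

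The 32 genes and all lists were chosen with earlier results of these data known. Values are given in full for the azurophil and late granule genes and for members at an unadjusted p under 0.05. From each other list, at most the 3 genes of smallest p are named, apart from genes given because they differed in the other direction. Alternatives were other background corrections, normalizations, filters, probe rules, variance models, a sex-linked covariate, a replicate block and arrays left out.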

Additional observations from a re-analysis of the deposited data

Results flagged for a closer look

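In 84 groups of 4 arrays checked (each gene and each gene group within each genotype), 8 had an array whose gap to the nearest of the others, divided by the group's range, was above Dixon's 95% critical value (ratios of 0.856 to 0.984), and chance flags about 1 in 20 groups. Knockout 1 was the array apart in 4 of the 8 and wild-type 1 in 3. Mpo was at 6.40 on knockout 1, where the other knockout arrays were at 7.05 to 7.12. The azurophil mean deviation was -0.11 on knockout 1 and 0.09 to 0.12 on the others, a gap to which the Mpo value contributed by construction. Late minus early, which takes in the same Mpo value, was 0.22 on knockout 1 and -0.16 on the other 3 knockout arrays. Padi4 was at 1.09 on knockout 1 and at 0.83 to 0.87 on the others. On wild-type 1, Fcnb was at 2.14, against 2.54 to 2.60. The receptor and surface genes averaged -0.19 on wild-type 1, against 0.08 to 0.10, and the NADPH oxidase subunits averaged -0.17, against 0.03 to 0.05. Mmp8 was at 3.07 on knockout 2 and at 3.36 to 3.39 on the other knockout arrays. The causes were not tested.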

How the results depend on the processing

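The count of neutrophil genes called stayed at 0 in each direction, and that of the related genes at 0, under all alternatives run, although the count over all genes moved from 51 to between 0 and 149. It was 149 with normexp and quantile normalization and with a trended robust variance, 132 with normexp alone, 80 with quantile normalization alone, 121 of 19466 genes in the deposited value table (which holds 30 of the 32), 91 with Ddx3y as a covariate, 90 without wild-type 1 and 19 with no filter. It was 20 without wild-type 2 or wild-type 3, 21 without wild-type 4, 30 without knockout 1, 19 without knockout 3 and 14 without knockout 4. It was 6 without both replicate 4 arrays, 13 without wild-type 3 and 4, 12 without knockout 3 and 4, and 0 without wild-type 1 and both replicate 4 arrays. Replicate numbers did not pair the arrays (correlations of same-numbered arrays were -0.11, -0.03, -0.01 and 0.07), and with a replicate block 19 genes and 0 of the 32 were called, with the late minus early difference at -0.13. The median azurophil difference moved to 0.21 without wild-type 3 and 4, by more than the spread between arrays. With each array left out in turn, the median difference ran from -0.06 to 0.04 for all 32 genes, 0.06 to 0.16 for azurophil genes and -0.13 to 0.02 for late genes, and late minus early from -0.23 to -0.10. Single genes moved by more than their spread in 11 of 734 values, and none was called. Alternatives with the second Mpo probe, without shared probe runs, and without wild-type 1 and both replicate 4 arrays were chosen after seeing the data.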
